A study of Homo sapiens with 24 samples.

Results

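The aldo-keto reductases measured here were 8 genes, AKR1A1, AKR1B1, AKR1B10, AKR1C1, AKR1C2, AKR1C3, AKR1C4 and AKR7A2, found by their Ensembl identifiers among the 60617 genes of the deposited count table. RNA-seq was performed on 686Tu (MDA686TU) cells, a malignant head and neck squamous cell carcinoma line, grown in DMEM/F12 with serum. Each of 4 groups held 6 libraries: cells without treatment (control), cells with EGCG at 40 µM, cells with resveratrol at 15 µM, and cells with both agents at these doses (combination), all harvested after 24 h. EGCG is the main green tea polyphenol and was dissolved in water, while resveratrol, a polyphenol of grapes, came from a stock in DMSO. The sources do not say whether the control received DMSO, so an effect of resveratrol and an effect of its solvent cannot be told apart. All groups were cultures of this 1 line, and nothing says whether replicates were cultured on separate days, so p-values measure the spread between these libraries only.

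Aldo-keto reductases are mostly soluble enzymes that use NADPH to reduce aldehydes and ketones to alcohols. Their substrates include sugars, steroids, prostaglandins, lipid aldehydes made by oxidative damage, and drugs that carry a carbonyl group. The AKR1C genes lie in a cluster of similar paralogs and are well known as targets of NRF2. This transcription factor responds to electrophiles and oxidants and binds the antioxidant response element. High AKR1C levels are common in squamous cancers in which this pathway is active.

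The AKR1C cluster lies on chromosome 10 (GRCh38, GENCODE 44). AKR1C1 spans 4963253 to 4983283 on the plus strand, AKR1C2 4987775 to 5018031 on the minus strand, AKR1C3 5035354 to 5107686 on the plus strand and AKR1C4 5195462 to 5218949 on the plus strand. AKR1A1 (45550543 to 45570049, plus strand) and AKR7A2 (19303965 to 19312144, minus strand) are on chromosome 1, and AKR1B1 (134442356 to 134459284, minus strand) and AKR1B10 (134527567 to 134541412, plus strand) are neighbours on chromosome 7. All 8 are protein-coding. Genes that overlap a member on either strand held at most 2 counts over all 24 libraries.

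The similarity of the AKR1C genes bears on how their reads could be assigned. Reads were paired at 50 bases each. Of the 8805 distinct 50-base stretches in the annotated AKR1C1 transcripts, 2170 (24.7%) also occur in AKR1C2 transcripts, where they make up 35.2% of 6173 stretches. For AKR1C3 and AKR1C4 the share found in any other gene of the superfamily was 5.23% and 5.85%, for AKR1B10 it was 9.54%, all with AKR1B15, and for AKR7A2 it was 5.84%. It was 0.144% for AKR1A1 and 0.130% for AKR1B1. The sources do not say how reads that match several genes were treated, so the division of counts between AKR1C1 and AKR1C2 is uncertain, and the 4 AKR1C genes are therefore also given as 1 sum.

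The upstream sequences are shown because the AKR1C genes moved together and because they show how alike these paralogs are outside the transcript. Each window is the 250 bases before a RefSeq start (GRCh38.p14), 5′ to 3′ on the strand of the gene. Capitals mark bases that differ from, or have no partner in, the aligned AKR1C1 window. AKR1C1 is chr10:4963165-4963414 (plus strand), AKR1C2 chr10:5003858-5004107 (minus strand), AKR1C3 start 1 chr10:5048531-5048780 and start 2 chr10:5094164-5094413 (plus strand), and AKR1C4 chr10:5196587-5196836 (plus strand).
AKR1C1: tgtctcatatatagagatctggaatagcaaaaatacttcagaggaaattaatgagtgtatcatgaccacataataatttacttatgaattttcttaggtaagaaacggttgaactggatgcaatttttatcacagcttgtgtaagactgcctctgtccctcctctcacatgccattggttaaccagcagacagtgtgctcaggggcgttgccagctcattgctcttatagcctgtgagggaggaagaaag
AKR1C2: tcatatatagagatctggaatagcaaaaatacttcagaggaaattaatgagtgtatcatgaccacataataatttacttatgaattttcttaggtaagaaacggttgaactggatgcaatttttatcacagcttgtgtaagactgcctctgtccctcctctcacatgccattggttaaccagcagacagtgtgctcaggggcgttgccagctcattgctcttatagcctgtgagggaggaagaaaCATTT
AKR1C3 start 1: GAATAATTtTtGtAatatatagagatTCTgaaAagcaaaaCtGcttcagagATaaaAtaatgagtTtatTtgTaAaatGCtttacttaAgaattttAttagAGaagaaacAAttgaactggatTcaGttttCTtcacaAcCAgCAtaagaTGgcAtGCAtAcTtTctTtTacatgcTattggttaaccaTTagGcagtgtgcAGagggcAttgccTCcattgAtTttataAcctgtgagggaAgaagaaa
AKR1C3 start 2: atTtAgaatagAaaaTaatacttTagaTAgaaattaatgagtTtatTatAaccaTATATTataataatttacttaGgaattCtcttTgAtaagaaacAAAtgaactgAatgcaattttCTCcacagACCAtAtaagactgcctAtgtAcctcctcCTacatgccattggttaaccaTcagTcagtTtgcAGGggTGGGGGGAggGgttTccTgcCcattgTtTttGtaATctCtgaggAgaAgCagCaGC
AKR1C4: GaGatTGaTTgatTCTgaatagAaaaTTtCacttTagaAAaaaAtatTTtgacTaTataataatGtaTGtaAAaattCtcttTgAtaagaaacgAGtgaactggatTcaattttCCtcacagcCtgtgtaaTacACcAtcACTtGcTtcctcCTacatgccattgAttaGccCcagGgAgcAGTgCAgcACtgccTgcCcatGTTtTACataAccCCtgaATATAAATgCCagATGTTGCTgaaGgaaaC

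The AKR1C2 window was identical to that of AKR1C1 in 245 of 254 aligned columns (96.5%), and its capitals are only the last bases, where the annotated start is shifted. Identity to AKR1C1 was 71.4% and 69.2% for the 2 windows of AKR1C3 and 59.9% for AKR1C4. The core of the antioxidant response element (TGACNNNGC, searched on both strands) occurs in none of these 5 windows, which says only that these letters are not in these 250 bases. It occurs in 10.9% of 35116 RefSeq promoter windows of this length. AP-1 sites (TGANTCA, 6.57% of all windows) were found in none of the members' windows. The core of the xenobiotic response element (GCGTG, 32.2% of all windows) was found in AKR1B1 and AKR7A2 only, among the 7 members with a window in the table. AKR1B10 is not in the table.

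AKR7A2 held 3 matches to the antioxidant response element core and is shown with those matches in capitals. The window is chr1:19312147-19312396 (minus strand). One match reads on the opposite strand, and none overlaps a match to the other motifs.
AKR7A2 start 1: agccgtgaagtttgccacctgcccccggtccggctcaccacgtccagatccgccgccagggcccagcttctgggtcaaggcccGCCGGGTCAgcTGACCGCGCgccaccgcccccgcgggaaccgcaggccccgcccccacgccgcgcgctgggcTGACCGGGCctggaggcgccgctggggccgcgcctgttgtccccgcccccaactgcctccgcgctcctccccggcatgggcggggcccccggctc

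Library totals ranged from 7034872 to 11735574 counts, and 15476 genes passed the filter on low counts and were tested. In every library the 9 markers of squamous epithelium (among them KRT5, KRT14 and TP63) were present, with a summed FPKM of 5282 to 6892. The 10 markers of other cells summed to 10.97 to 21.1 FPKM, mostly COL1A1, and PTPRC, CD3E, PECAM1, DCN and ALB had at most 1 count in any library. This sum was 13.5 to 16.3 in control, 10.97 to 13.3 with EGCG, 15.98 to 18.9 with resveratrol and 18.6 to 21.1 with the combination. In the same order the squamous sum was 6404 to 6744, 6109 to 6892, 5323 to 5606 and 5282 to 5771. Its members did not all move alike. By mean FPKM, KRT5 (1275 in control, 1040 with resveratrol), KRT14, KRT17 and KRT6A were lower with resveratrol. DSG3 (24.25 and 32.29) and CDH1 (66.88 and 81.75) were higher, and TP63, SFN and EPCAM differed less in proportion. The part of the marker sums in the results was not tested. The share of mitochondrial transcripts was lower in replicates 1 to 3 (0.249% to 0.326%) than in replicates 4 to 6 (0.448% to 0.775%) of the 4 groups. No label names a batch, and values within these 2 sets are given where they bear on a result.

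AKR1C1, AKR1C2 and AKR1C3 rose with resveratrol and with the combination, by 3.67-fold to 5.23-fold, whereas none of the 6 members that could be tested was called with EGCG alone. AKR1B1 and AKR7A2 rose by 1.199-fold to 1.25-fold in the same 2 groups, and AKR1A1 rose by 1.11-fold with the combination. AKR1C4 and AKR1B10 had too few counts to pass the filter. In bulk RNA, more cells with a transcript and more of it per cell cannot be told apart. Calls were made from raw counts with the quasi-likelihood test of edgeR, at an adjusted p (Benjamini-Hochberg) below 0.1 together with an unadjusted p below 0.05. The values below are normalized counts, the raw counts divided by 1 factor per library, and cannot be compared between genes.

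**Figure D1:**
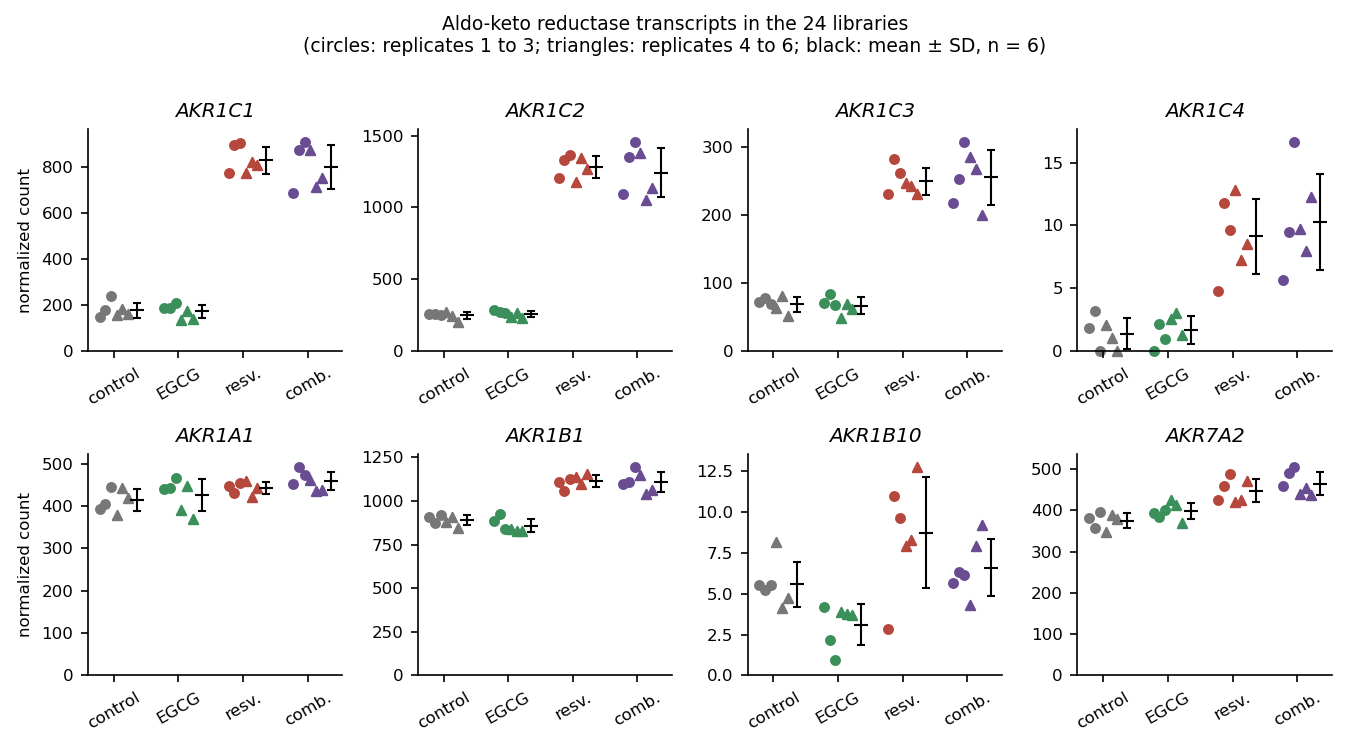
Normalized count (vertical axes, each from 0 and scaled to its gene) of the 8 members in each library of the 4 groups; circles are replicates 1 to 3, triangles replicates 4 to 6, and black marks show mean ± SD (n = 6). The resveratrol and combination libraries of AKR1C1, AKR1C2 and AKR1C3 sit above all control and EGCG libraries, while those of AKR1A1 overlap with them.

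AKR1C2 reduces dihydrotestosterone to a weak androgen. Its normalized count ran from 202 to 267 in control (median 253) and from 226 to 286 with EGCG (median 264). With resveratrol it ran from 1178 to 1364 (median 1300.0), and with the combination from 1049 to 1456 (median 1241). Every library with resveratrol was thus above every library without it. The log2 fold change against control was 2.39 ± 0.07 (SE) with resveratrol (edgeR adjusted p = 5.48e-25) and 2.34 ± 0.07 with the combination (adjusted p = 5.65e-25).

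AKR1C1, which inactivates progesterone, had normalized counts of 146 to 237 in control (median 168) and 132 to 208 with EGCG (median 181). They were 773 to 905 with resveratrol (median 818) and 689 to 911 with the combination (median 814). Here too the groups with and without resveratrol did not overlap. The log2 fold change was 2.24 ± 0.09 (SE) with resveratrol (adjusted p = 1.29e-21) and 2.19 ± 0.09 with the combination (adjusted p = 2.02e-21).

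AKR1C3 forms testosterone and prostaglandin F from their keto precursors. Its normalized count was 50.3 to 80.4 in control (median 69.6), 47.5 to 84.0 with EGCG (median 67.9), 230 to 282 with resveratrol (median 244) and 200 to 307 with the combination (median 260). The groups with and without resveratrol were again apart. The rise was the smallest of the 3 paralogs, with a log2 fold change of 1.88 ± 0.11 (SE) with resveratrol (adjusted p = 4.02e-17) and 1.91 ± 0.11 with the combination (adjusted p = 1.91e-17). Among the 15476 genes tested, AKR1C2, AKR1C1 and AKR1C3 ranked 3, 7 and 21 by the size of the rise with resveratrol, and 14, 20 and 29 with the combination.

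AKR1C4, the paralog best known from liver, was near the limit of detection. Raw counts summed to 8 over the 6 control libraries (0 to 3 each), 10 with EGCG (0 to 4), 59 with resveratrol (5 to 15) and 61 with the combination (5 to 19). The lowest library with resveratrol was above the highest without it also for this gene. Mean normalized counts were 1.34 ± 1.24 (SD, n = 6) in control and 9.12 ± 2.97 with resveratrol, a log2 ratio of means of 2.76, and 10.3 ± 3.81 with the combination, a log2 ratio of 2.94. Of its 50-base stretches 5.85% also occur in another gene of the superfamily, and how far reads of the other AKR1C genes were counted under AKR1C4 was not tested.

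AKR1C1 to AKR1C4 were also taken as 1 feature, which does not depend on how counted reads were divided within the cluster. Any reads left out for matching several genes would be missing from this sum too. It was 492 ± 47.9 normalized counts (SD, n = 6) in control, 497 ± 59.2 with EGCG, 2371 ± 147 with resveratrol and 2311 ± 299 in the combination. The log2 fold change against control was 2.27 (95% confidence interval 2.13 to 2.42) with resveratrol, 2.24 (2.09 to 2.38) with the combination and 0.02 (-0.13 to 0.18) with EGCG. In replicates 1 to 3 alone the ratio of means with resveratrol was 4.71, and in replicates 4 to 6 alone it was 4.94.

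AKR1B1, aldose reductase, converts glucose to sorbitol in the first step of the polyol pathway. Its normalized count was 844 to 921 in control (median 894), 829 to 925 with EGCG (median 841), 1057 to 1157 with resveratrol (median 1117) and 1042 to 1197 with the combination (median 1104). The change was small beside that of the cluster, yet the groups with and without resveratrol did not overlap. The log2 fold change was 0.33 ± 0.04 (SE) with resveratrol (adjusted p = 1.65e-09) and 0.32 ± 0.04 with the combination (adjusted p = 2.21e-09).

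AKR7A2 reduces succinic semialdehyde and aldehydes of aflatoxin. It had 348 to 395 normalized counts in control (median 380), 370 to 424 with EGCG (median 398), 420 to 487 with resveratrol (median 443) and 436 to 506 with the combination (median 457). Resveratrol and combination libraries were above all control libraries, and the lowest resveratrol library was below the highest EGCG library. The log2 fold change was 0.26 ± 0.05 (SE) with resveratrol (adjusted p = 2.1e-05) and 0.31 ± 0.05 with the combination (adjusted p = 1.05e-06).

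AKR1A1, the general aldehyde reductase, moved least. Its normalized count was 380 to 445 in control (median 412), 369 to 465 with EGCG (median 441), 422 to 458 with resveratrol (median 445) and 436 to 492 with the combination (median 456), and all 4 ranges overlapped. With resveratrol the log2 difference was 0.10 ± 0.05 (SE), with an adjusted p of 0.0964 and an unadjusted p of 0.0558, and it was not called. With the combination it rose by 0.15 ± 0.05 on the log2 scale (adjusted p = 0.0111). In replicates 4 to 6 alone that rise was 0.10 and was no longer called (edgeR adjusted p = 0.244).

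AKR1B10, which reduces retinal and lipid aldehydes and is often high in cancers of the lung and liver, had 1 to 14 raw counts per library. Mean normalized counts were 5.56 ± 1.38 (SD, n = 6) in control, 3.10 ± 1.26 with EGCG, 8.73 ± 3.39 with resveratrol and 6.59 ± 1.72 in the combination. The groups overlapped except that EGCG libraries reached at most 4.21 and the lowest combination library was at 4.33. At these counts no difference from control passed edgeR's test without the filter.

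**Figure D2:**
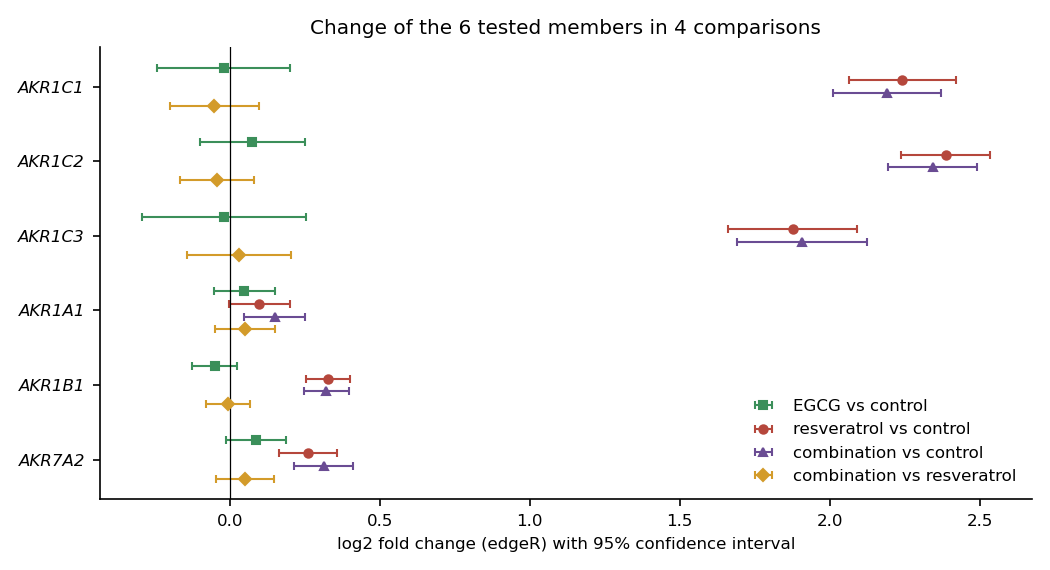
edgeR log2 fold change with its 95% confidence interval (horizontal axis) for the 6 members tested (rows), in 4 comparisons marked by colour and symbol. AKR1C1, AKR1C2 and AKR1C3 lie between 1.88 and 2.39 with resveratrol and with the combination, and all members lie near 0 with EGCG alone and for the combination against resveratrol.

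The effect of resveratrol against control reached 5 of the 6 members tested, all higher, and in all 5 the 6 resveratrol libraries were above the 6 control libraries. Over all genes tested, 28.9% were called higher and 56.9% were called in either direction, and in 15.3% all resveratrol libraries were above all control libraries. The median log2 fold change of the 6 members was 1.102, beside 0.0037 over all genes, but no member lay near it. AKR1A1, AKR7A2 and AKR1B1 were at 0.10, 0.26 and 0.33, and AKR1C3, AKR1C1 and AKR1C2 at 1.88, 2.24 and 2.39. With the combination, 6 of 6 members were called higher against a background of 29.9% (59.8% in either direction), and 5 were apart from control against a background of 15.6%. Their median log2 fold change was 1.12, beside -0.0015 over all genes, and again lay in the gap between AKR1B1 (0.32) and AKR1C3 (1.91). Both comparisons share the same control libraries, so they are not independent of each other. The members were chosen with earlier results of these data known, so these counts beside all genes are a description and not a test.

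EGCG alone was compared with control to ask what the green tea polyphenol does by itself. None of the 6 members tested was called by edgeR, and none had an unadjusted p under 0.05 or an adjusted p under 0.1 by DESeq2. Over all genes 1.76% were called, and 1570 had an unadjusted p under 0.05. The log2 differences ran from -0.05 for AKR1B1 (95% confidence interval -0.13 to 0.03) to 0.09 for AKR7A2 (-0.01 to 0.19). For AKR1C2 the interval was -0.10 to 0.25 and for AKR1C3 -0.29 to 0.25, so a rise of the size seen with resveratrol lay outside these intervals.

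The combination was compared with resveratrol to ask what EGCG adds. No member was called by edgeR or by DESeq2, and none had an unadjusted p under 0.05, against 7.86% of all genes called in either direction. The log2 difference was -0.05 for AKR1C1 (95% confidence interval -0.20 to 0.10), -0.04 for AKR1C2 (-0.17 to 0.08), 0.03 for AKR1C3 (-0.14 to 0.21), -0.01 for AKR1B1 (-0.08 to 0.07), 0.05 for AKR1A1 (-0.05 to 0.15) and 0.05 for AKR7A2 (-0.04 to 0.15). For the cluster as 1 feature it was -0.04 (-0.17 to 0.09). The interaction term, which asks whether the effect of both agents departs from the sum of their single effects on the log2 scale, was called for no member by edgeR or DESeq2, and none had an unadjusted p under 0.05 by edgeR. Its largest value was -0.12 for AKR1C2 (-0.33 to 0.09), and 0.265% of all genes were called.

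Against EGCG alone, the combination was higher for the same 5 members that rose with resveratrol, with log2 fold changes of 2.21 for AKR1C1, 2.27 for AKR1C2, 1.93 for AKR1C3, 0.37 for AKR1B1 and 0.22 for AKR7A2. The background called higher was 28.7%. For AKR1A1 the log2 difference was 0.10 ± 0.05 (SE) with an edgeR adjusted p of 0.0885, but its unadjusted p of 0.0513 was not under the limit.

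The make-up of the family shifted towards the AKR1C genes. The summed normalized count of the 8 members was 2177 ± 95.7 (SD, n = 6) in control, 2182 ± 119 with EGCG, 4384 ± 157 with resveratrol and 4350 ± 384 in the combination, which is 2.01 and 2.0 times the control with resveratrol and the combination. Without the AKR1C genes the ratios were 1.195 and 1.21. AKR1C transcripts took 22.6% ± 1.47 of the family count in control, 22.7% ± 1.61 with EGCG, 54.1% ± 1.70 with resveratrol and 53.0% ± 2.29 in the combination. No library with resveratrol was below 49.9% and none without it was above 24.1%.

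Single shares moved in opposite directions. AKR1C2 went from 11.3% ± 1.04 of the family count in control to 29.2% ± 1.02 with resveratrol, AKR1C1 from 8.06% ± 1.18 to 18.9% ± 0.72 and AKR1C3 from 3.13% ± 0.44 to 5.67% ± 0.36. AKR1B1, the largest in control, went from 40.9% ± 0.95 to 25.4% ± 1.28, although its own count rose. AKR1A1 went from 19.0% ± 0.90 to 10.1% ± 0.52 and AKR7A2 from 17.2% ± 0.70 to 10.2% ± 0.37. AKR1B10 and AKR1C4 took 0.256% and 0.0623% in control and 0.198% and 0.208% with resveratrol. With the combination the shares were 28.5% for AKR1C2, 18.4% for AKR1C1, 5.84% for AKR1C3 and 25.6% for AKR1B1. With EGCG alone they were 11.8%, 7.82%, 3.03% and 39.4%.

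**Figure D3:**
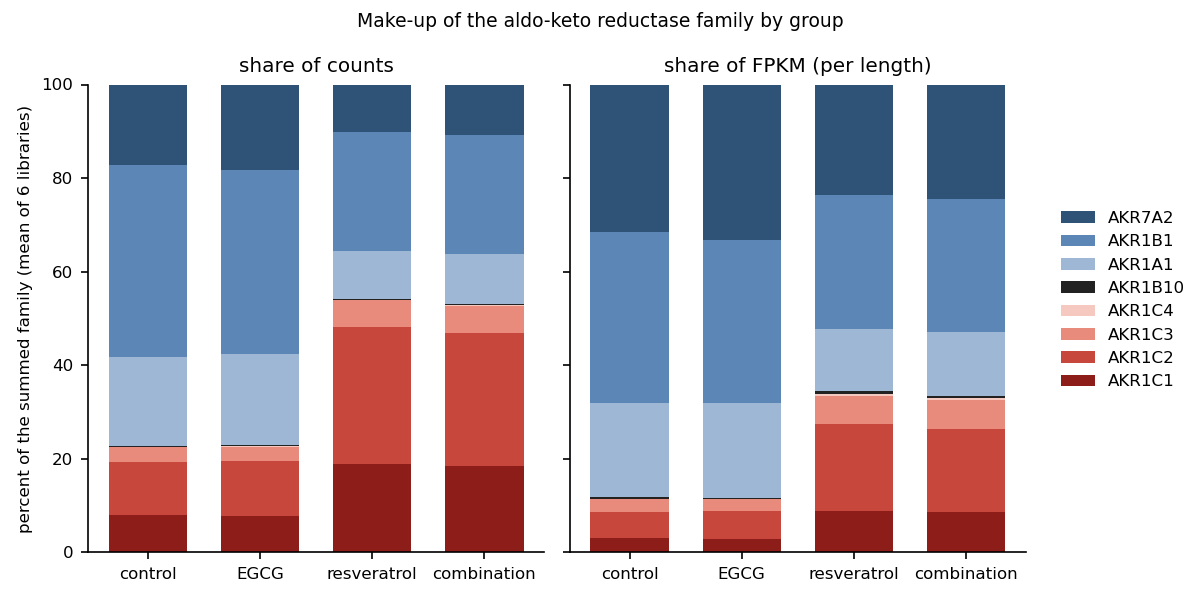
Mean percent of the summed family over 6 libraries (vertical axis) taken by each member in the 4 groups, from counts on the left and from FPKM on the right; red shades are the AKR1C genes. The AKR1C genes take 22.6% of counts in control and 54.1% with resveratrol, and 11.5% and 34.0% of FPKM.

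Counts favour long transcripts, so levels were compared between genes on the FPKM scale, which divides by 1 length per gene. In control the FPKM level was highest for AKR1B1 (27.9 ± 0.90, SD, n = 6), followed by AKR7A2 (24.1 ± 1.17), AKR1A1 (15.2 ± 0.98), AKR1C2 (4.37 ± 0.41), AKR1C1 (2.30 ± 0.43), AKR1C3 (2.002 ± 0.32), AKR1B10 (0.359 ± 0.09) and AKR1C4 (0.0805 ± 0.07). Only AKR1C1 and AKR1C3 overlapped among neighbours in this order. EGCG libraries had the same order, with overlap also between AKR1B1 and AKR7A2 and between AKR1B10 and AKR1C4. With resveratrol the FPKM level of AKR1C2 (22.7 ± 1.39) passed that of AKR1A1 (16.2 ± 0.51), with AKR1B1 at 34.9 ± 1.08, AKR7A2 at 28.8 ± 1.84, AKR1C1 at 10.9 ± 0.76 and AKR1C3 at 7.29 ± 0.58. AKR1B10 (0.564 ± 0.22) and AKR1C4 (0.546 ± 0.18) then overlapped. On this scale the family sum was 1.60 times the control with resveratrol, and AKR1C genes took 11.5% ± 0.95 of it in control and 34.0% ± 1.41 with resveratrol. All exons annotated in GENCODE 44, joined, span 8765 bases for AKR1C1, 6086 for AKR1C2, 3654 for AKR1B1 and 1779 for AKR7A2. The length behind the FPKM of AKR1C2 was 1.77 times that of AKR1B1, against 1.67 by this measure. The other members matched more closely. Exons of every annotated transcript enter such a length, so the order between genes and the shares of FPKM depend on it. Which transcripts these cells used was not tested.

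AKR1C3 rose less than AKR1C2. The ratio of the AKR1C3 count to the AKR1C2 count was 0.233 to 0.329 in control (median 0.276), 0.202 to 0.312 with EGCG (median 0.258), 0.180 to 0.212 with resveratrol (median 0.192) and 0.176 to 0.255 with the combination (median 0.202). All resveratrol libraries were below all control libraries, and combination and control overlapped. The difference of mean log2 ratios was -0.505 for resveratrol against control (exact permutation, two-sided, p = 0.00216, which is the lowest possible with 6 against 6 libraries, and 0.0173 after Benjamini-Hochberg adjustment over 8 tests). It was -0.43 for the combination against control (exact permutation p = 0.00649, adjusted 0.026), and with permutation only within replicates 1 to 3 and 4 to 6 the adjusted p was 0.06. For EGCG against control it was -0.109 (exact permutation p = 0.355, adjusted 0.522), and for the combination against resveratrol 0.0753 (exact permutation p = 0.435, adjusted 0.522).

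The ratio of AKR1C1 to AKR1C2, the most similar pair, passed in none of the 4 comparisons (exact permutation, adjusted p from 0.522 to 0.924). Its mean was 0.720 ± 0.143 (SD, n = 6) in control, 0.663 ± 0.0738 with EGCG, 0.649 ± 0.0224 with resveratrol and 0.647 ± 0.0210 in the combination. Shared stretches between these genes could draw their counts together, and their part in this ratio was not tested.

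**Figure D4:**
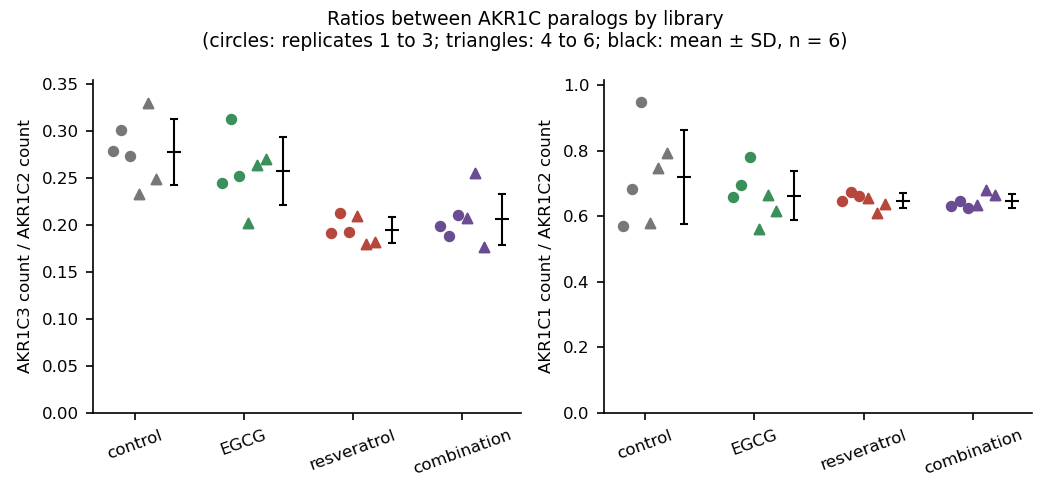
Ratio of the AKR1C3 count to the AKR1C2 count (left) and of the AKR1C1 count to the AKR1C2 count (right) in each library by group; circles are replicates 1 to 3, triangles replicates 4 to 6, and black marks show mean ± SD (n = 6). The 6 resveratrol libraries lie at 0.180 to 0.212 on the left, below the control libraries at 0.233 to 0.329, and the groups overlap on the right.

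Some genes outside the family followed similar courses over the 24 libraries, measured by the root mean square difference of centred log2 CPM (prior count 2). This is a description, since all genes share the libraries. The AKR1C sum had a root mean square of 1.13 by this scale, and the nearest genes were LAMP3 (difference 0.250), CYP4F11 (0.263), GDF15 (0.294), NUPR1 (0.309) and C1S (0.328). LAMP3 encodes a lysosomal membrane protein and CYP4F11 a cytochrome P450 that hydroxylates fatty acids. GDF15 encodes a stress-induced cytokine and NUPR1 a stress-induced chromatin protein. CYP4F11 rose from 18.6 ± 3.72 normalized counts in control to 109 ± 7.14 with resveratrol, and was at 116 ± 16.1 in the combination, which was not called against resveratrol (edgeR adjusted p = 0.608). The other 4 genes were called higher in the combination than with resveratrol, a comparison in which no AKR1C gene was called. LAMP3 went from 264 to 335 normalized counts, GDF15 from 139 to 181, NUPR1 from 47.8 to 63.5 and C1S from 149 to 199 (log2 fold changes of 0.34, 0.39, 0.40 and 0.43). AKR1B1 was nearest to CSRP1 and MBTPS1, AKR7A2 to ENSA and SUMF2, and AKR1A1 to DCTN2 and POLR2G, with differences of 0.0583 to 0.0683.

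Of 11 other genes of the superfamily, 10 had at most 14 counts in any library and were not tested. AKR1B15, the nearest relative of AKR1B10, had 0 to 4 counts. KCNAB2, which encodes a beta subunit of potassium channels with an aldo-keto reductase fold, rose by 0.55 ± 0.09 (SE) on the log2 scale with resveratrol (adjusted p = 2.61e-06) and by 0.53 with the combination.

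NRF2 target genes outside the family were mostly higher with resveratrol. With resveratrol 27 of 32 tested were called higher, 2 lower and 3 not, and their median log2 fold change was 0.53, while with the combination 24 were higher and 2 lower, with a median of 0.48. This is 90.6% and 81.3% called in either direction, against 56.9% and 59.8% of all genes. With EGCG alone 2 were higher and 3 lower, or 15.6% against 1.76% of all genes. NMRAL2P, a pseudogene of a redox sensor, rose by 1.61 ± 0.08 (SE, log2) and GCLC, the catalytic subunit of glutathione synthesis, by 1.42 ± 0.03. TXN, thioredoxin, fell by 0.15 and TKT, transketolase, by 0.12. AKR1C1, AKR1C2 and AKR1C3 thus had larger log2 fold changes with resveratrol than any gene of this list.

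Genes listed around the supply of NADPH, the reductant of this family, moved both ways. With resveratrol 9 of 17 tested were called higher and 4 lower (median 0.10), and with the combination 8 and 5, so 76.5% were called in each, against 56.9% and 59.8% of all genes. ALDH1L2, a mitochondrial folate enzyme that yields NADPH, rose by 1.26 ± 0.05 (SE, log2), from 262 to 627 normalized counts. The folate enzymes MTHFD1L and MTHFD1 fell by 0.38 and 0.34.

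Short-chain carbonyl reductases act on many of the same substrates from another protein fold. With resveratrol 11 of 20 tested were called higher and 5 lower (median 0.15), and with the combination 8 and 5. The share called was 80% with resveratrol, against 56.9% of all genes, but 65% with the combination, near the 59.8% of all genes. CBR3, a carbonyl reductase, rose by 0.73 ± 0.18 (SE, log2) from 19 normalized counts in control, and DHRS1 by 0.65 ± 0.12. DHRS2 fell by 1.58 ± 0.07, from 225 to 74 normalized counts, and DHRS13 by 0.44.

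For other enzymes of steroid and prostaglandin metabolism 8 of 21 tested were called higher and 3 lower with resveratrol (median 0.06), and 8 and 6 with the combination. The shares called, 52.4% and 66.7%, were near the 56.9% and 59.8% of all genes. HSD17B14, an oxidising hydroxysteroid dehydrogenase, rose by 1.08 ± 0.24 (SE, log2) from 12 to 25 normalized counts, and PTGR1, which inactivates prostaglandins and leukotrienes and is also on the NRF2 list, by 0.76 ± 0.05. PTGES3, a prostaglandin synthase that is also a chaperone of steroid receptors, fell by 0.32, and HSD17B10 by 0.22.

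Genes of the osmotic response were counted because aldose reductase belongs to it. With resveratrol 3 of 9 tested were called higher and 4 lower (median -0.09), and the counts were the same with the combination. The share called was 77.8% in both, against 56.9% and 59.8% of all genes. SLC5A3, a myo-inositol transporter, rose by 0.26 ± 0.07 (SE, log2) and HSPA4L, a chaperone, by 0.26 ± 0.05. AQP3, a water channel, fell by 0.43, and SORD, the sorbitol dehydrogenase that follows aldose reductase in the polyol pathway, fell by 0.38 ± 0.03, from 1665 to 1276 normalized counts.

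Genes near the AKR1C cluster showed smaller differences. Within 500 kb of an AKR1C member 7 other genes were tested, of which 3 were called higher with resveratrol and 4 not, and their median log2 fold change was 0.04, while with the combination 0 were higher and 2 lower. The shares called, 42.9% and 28.6%, were below the 56.9% and 59.8% of all genes, over only 7 genes. The highest was CALML3-AS1 at 0.33 ± 0.15 (SE) and the next ASB13 at 0.30 ± 0.10. Near the other members 29 genes were tested, of which 7 were called higher and 11 lower with resveratrol (median -0.03), or 62.1%, near the 56.9% of all genes. With the combination 9 were higher and 12 lower (median -0.05), or 72.4% against 59.8% of all genes. With resveratrol TESK2 rose by 1.19 and IPP by 0.89, both near AKR1A1, while HPDL fell by 0.81 and IFFO2 by 0.52.

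**Figure D5:**
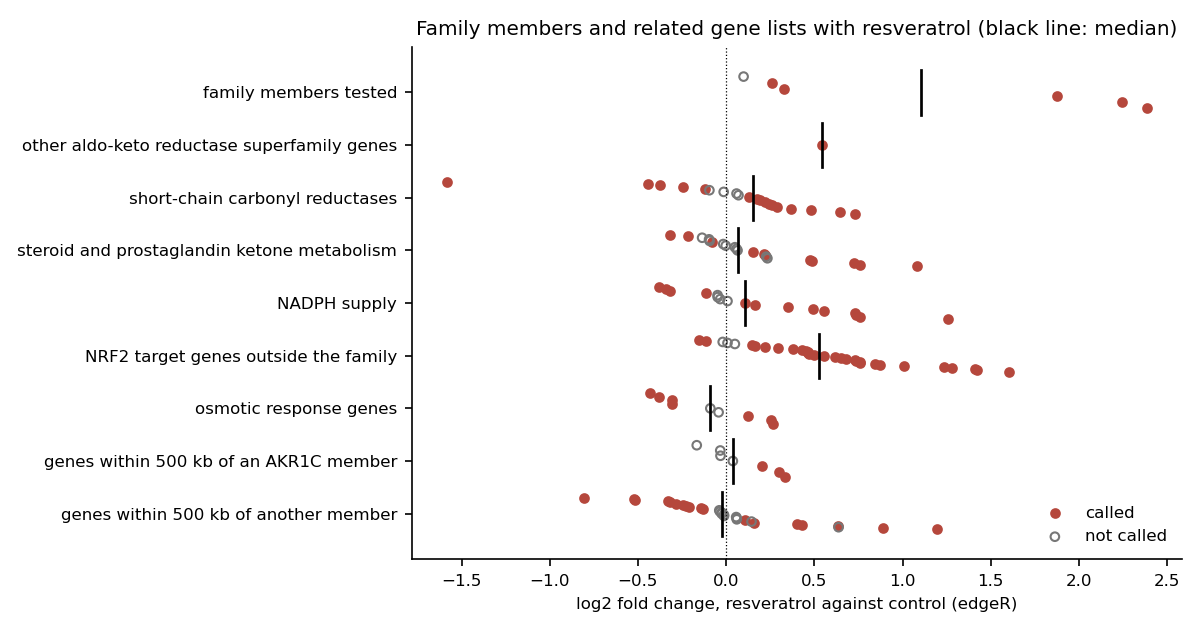
edgeR log2 fold change of resveratrol against control (horizontal axis) for the 6 members tested and for each gene of the related lists (rows); filled red points were called, open points were not, and black lines are medians. NRF2 target genes outside the family have a median of 0.53, while the genes within 500 kb of the AKR1C cluster have a median of 0.04.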

How the data were processed

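RNA-seq of 686Tu cells in 4 groups of 6 libraries was analysed. Per the labels and methods, the authors made stranded mRNA libraries with TruSeq, trimmed paired reads with Trimmomatic 0.36 and aligned them to GRCh38 with HISAT2 2.0.4. The authors deposited raw counts per gene, normalized counts (a signal per gene, checked to be the counts divided by 1 factor per library) and FPKM values (checked to be the normalized counts divided by a constant per gene). The counting program, annotation release, strand setting and treatment of reads that match several genes are not given in the sources used here.

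The depth was 7034872 to 11735574 counts per library, and counting error is included in the SD over 6 libraries. Of 60617 genes, 60261 had a symbol and 15476 passed filterByExpr of edgeR 4.0.16 (R 4.3.3). All 24 libraries entered 1 quasi-likelihood fit after TMM scaling, and p-values were adjusted over all genes tested. The biological coefficient of variation was 5.32%. DEGs had an adjusted p under 0.1 and p under 0.05. Ratios between paralogs were tested by exact permutation over libraries. The scripts were tested on simulated data. Sums and shares were given no test.

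Correlations of same-numbered deviations ranged from -0.0111 to 0.131 over 36 pairs, with a median of 0.0488. For pairs with other numbers the median was 0.0276 within replicates 1 to 3 or 4 to 6, and -0.0406 between these sets. Of the 24 libraries, 11 matched best with their own replicate number. Whether replicate numbers pair the samples was not tested, and the main fit treated the libraries as unpaired. No 2 libraries were duplicates. Alternatives were DESeq2 1.42.0, other scalings and filters, a replicate block and each library left out. Replicates 1 to 3 or 4 to 6 were also fitted alone. Another fit had a term that separates these 2 sets, which no label names as batches. The AKR1C genes as 1 feature and the untested members without the filter were added after seeing the data.

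The members and lists were chosen with earlier results of these data known. All members are named, with up to 2 largest rises and 2 largest falls with resveratrol per list, other superfamily genes, the 5 genes nearest in pattern to the AKR1C sum and 2 for each other member tested. One gene that this rule names is not reported here. Promoters came from RefSeq.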

Additional observations from a re-analysis of the deposited data

Results flagged for a closer look

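In 40 groups of 6 values tested, 2 held a library set apart from the other 5 by Dixon's test, and chance gives about 1 in 20 groups. The AKR1B10 normalized count of control replicate 4 was 8.161, while the other control libraries were at 4.12 to 5.54. The AKR1C2 normalized count of control replicate 6 was 202.3, while the others were at 244 to 267. Without each library in turn, the log2 fold change of AKR1C2 with resveratrol was 2.34 to 2.41.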

How the results depend on the processing

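No called member reversed, and 1 of 176 alternative values lost its call: AKR1A1 in the combination in replicates 4 to 6 alone. Leaving out a library changed none of 384. Of uncalled values 11 of 214 reversed and 8 gained a call, and with a library left out 29 of 480 reversed and 16 gained one, all AKR1A1. With resveratrol AKR1A1 was called without control 3 or 5, EGCG 1, 2, 4 or 6, or resveratrol 5 (log2 0.11 to 0.14), and in the combination against EGCG without control 3, 4 or 5, EGCG 1, 2, 3 or 5, or combination 5 or 6 (0.10 to 0.13). On the FPKM scale the family ratios were 1.60, 1.61 and, for the combination against EGCG, 1.59, and the AKR1C shares were 11.5%, 11.4%, 34.0% and 33.0% in control, EGCG, resveratrol and combination. Library size alone as the scaling shifted the median of all genes by 0.09 with resveratrol.

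The replicate block called 6 members with resveratrol and 6 with the combination. Its sign flips cannot go under p = 0.0313: the AKR1C3 to AKR1C2 log2 differences of -0.505 and -0.430 then had an exact adjusted p of 0.125, and the second had 0.06 by exact permutation within replicates 1 to 3 and 4 to 6.

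Reversed log2 values were, for the interaction of AKR1A1, -0.011 with library size alone and -4.2e-05 with every gene of at least 1 count. In replicates 1 to 3 alone they were 0.064 for AKR1C1 and 0.026 for AKR1C3 with EGCG, 0.050 for AKR1B1 and 0.0024 for AKR1C2 in the combination against resveratrol, and -0.032, -0.015 and 0.023 for the interactions of AKR1A1, AKR1C3 and AKR7A2. In replicates 4 to 6 alone they were -0.025 for AKR1A1 with EGCG and 0.082 for the interaction of AKR1C1. The cause was not tested. With a library left out, the ranges were -0.079 to 0.088 (AKR1C1, EGCG), -0.094 to 0.045 (AKR1C3, EGCG), -0.030 to 0.012, -0.097 to 0.00027 and -0.037 to 0.095 (AKR1B1, AKR1C2 and AKR1C3, combination against resveratrol), -0.031 to 0.028, -0.14 to 0.028 and -0.018 to 0.13 (interactions of AKR1A1, AKR1C1 and AKR1C3) and -0.019 to 0.0093 (AKR1C1 to AKR1C2 ratio, combination against resveratrol).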

Other observations

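Without the filter on low counts, AKR1C4 had a log2 fold change of 2.71 with resveratrol (edgeR adjusted p = 3.66e-08) and 2.90 with the combination (adjusted p = 1.4e-09), and DESeq2 gave 2.81 and 2.99 (adjusted p = 1.7e-05 and 3.36e-06). AKR1B10 had 0.65 with resveratrol (edgeR adjusted p = 0.17, DESeq2 0.184), 0.24 with the combination (0.729 and 0.687) and -0.80 with EGCG (edgeR adjusted p = 0.676). These fits were added after seeing the data.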
